A study of Mus musculus with 12 samples.

Results

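The question addressed was whether medium conditioned by prostate cancer cells changes gene expression in mouse osteoblasts differently when the libraries are labelled wild type and when they are labelled knockout for F2rl1. The quantity measured was the interaction, that is, the log2 effect of conditioned medium in KO minus the log2 effect of conditioned medium in WT. A positive value means that a gene was raised more, or lowered less, by the conditioned medium in KO than in WT. All 12 samples of the series entered it, and 11 of these were distinct libraries, because 2 of the 3 unconditioned WT libraries held the same counts and were counted once.

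The cells were osteoblasts freed by collagenase from the skull bones (calvariae) of newborn C57Bl/6J mice and cultured first with 10% fetal calf serum. After 48 h they received BRFF-HPC1 medium with 20% serum, either unconditioned or kept for 48 h on MDA-PCa-2b cells, an established human prostate cancer line, and RNA was taken 4 days later. The 4 groups were WT in unconditioned medium (2 distinct libraries), WT in conditioned medium (3), F2rl1 -/- in unconditioned medium (3) and F2rl1 -/- in conditioned medium (3). The labels tie the deletion to no cell type and do not give the stretch removed, the factors in the conditioned medium come from human cells, and all groups share the same serum-rich base medium. WT and KO stand below for libraries labelled so, and libraries carry the numbers 0, 1 and 2 that the authors' table gives them within a group.

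F2rl1 encodes protease-activated receptor 2 (PAR2), a receptor coupled to G proteins. Trypsin-like serine proteases cleave its outer end, and the freed end then folds back and switches the receptor on. Osteoblasts carry PAR2 as well as PAR1, the thrombin receptor encoded by F2r, and prostate tumours that spread to bone release proteases and growth factors onto such cells.

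The labels were first checked on the targeted gene, counted in fragments per library over the whole gene. For WT, unconditioned medium gave 25 and 20 F2rl1 fragments, and conditioned medium gave 14, 23 and 14. In KO it had 33, 33 and 46 fragments in unconditioned medium and 31, 13 and 12 in conditioned medium. Thus F2rl1 fragments were not lower in the libraries labelled KO. The table gives no fragments per exon, so whether they come from outside a deleted stretch was not tested, and every direction given below rests on the labels. The interaction for F2rl1 itself was -0.76 (standard error, SE, 0.64; unadjusted p = 0.259, edgeR). F2r, with 2853 to 4701 fragments per library, had an interaction of -0.35 (SE 0.21).

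Libraries held 15023991 to 16956752 fragments, and levels below are in CPM, the usual depth-scaled unit, after TMM scaling. One sample titled WT in unconditioned medium carries the knockout genotype label and was kept with WT by its title. On the main axis of variation (45.4% of the variance) conditioned KO libraries 1 and 2 lay at 67.5 and 82.7, while conditioned KO library 0 lay at -5.77, inside the range of the conditioned WT libraries (-10.8 to 27.7). Conditioned KO library 0 therefore stands apart from its group, and results that rest on it are given with and without it. On the second axis (25.75% of the variance) unconditioned KO library 0 lay at -14.91, against 44.38 and 54.07 for unconditioned KO libraries 1 and 2. Unconditioned WT libraries lay at 7.66 and -6.52 there. Unconditioned KO library 0 thus stands apart from its group too, and interaction counts without both KO libraries of number 0 are also given. Runx2, the master transcription factor of osteoblasts, was at 68.3 to 93.8 CPM in every library, and Col1a1, the main bone collagen, at 6439 CPM or more. Other osteoblast markers were less even or low. Sp7 ranged from 1.68 to 39.7 CPM and was lowest in conditioned KO libraries 1 and 2, at 3.08 and 1.68 CPM. Ibsp was at 0.198 to 0.948 CPM, and Bglap was not among the genes tested under a single symbol. Of the markers of other cells, the summed level of the 26 skeletal muscle genes tested ranged from 40.2 to 405 CPM and was highest in unconditioned WT library 0. The 19 macrophage and leukocyte genes together reached 20.96 to 70.0 CPM, the 12 keratinocyte genes 25.2 to 83.6 CPM. The labels do not state whether replicates come from different mice or cultures. The p-values therefore reflect variation among the libraries at hand, part of which may be technical. How much of it is technical was not tested. Ddx3y, a gene of the Y chromosome, was at 35.8, 38.3 and 90.4 CPM in unconditioned KO libraries 0, 1 and 2.

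Across the 15197 genes tested, no gene had an interaction past the threshold. The count of genes called at an adjusted p under 0.05 was 0 (0% of those tested; edgeR quasi-likelihood test, Benjamini-Hochberg adjustment), and the smallest adjusted p was 0.822. At an unadjusted p under 0.05 there were 489 genes (3.22%). DESeq2 also called 0 genes, with 558 at an unadjusted p under 0.05, and limma on log2(FPKM + 1) called 1. That gene has no symbol and lies on chromosome 2, and its interaction was 1.74 in limma. The median SE of an interaction was 0.319, so at this spread many differences of moderate size could not be told from 0.

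The effects of the medium in the 2 genotypes ran largely in parallel. In KO, 2545 genes were called (16.7% of those tested), of which 1338 rose (8.8%) and 1207 fell (7.94%). In WT, 243 genes were called (1.6%), of which 166 rose (1.09%) and 77 fell (0.507%). Of these, 233 genes were called in both genotypes, which is 95.9% of the WT calls and 9.16% of the KO calls. All 233 moved in the same direction, 160 up and 73 down. The 2 sets of libraries share no sample, and across the 15197 genes, which are not independent replicates, the effects correlated with r = 0.715. Among the 2312 genes called in KO alone, 97.1% had the same sign in WT, against 71.9% of all genes tested.

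**Figure D1:**
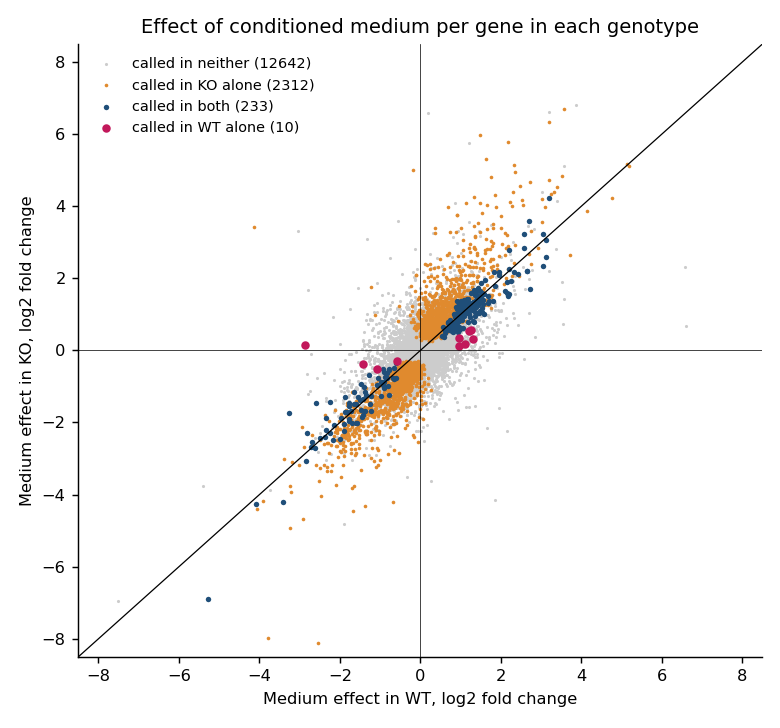
Log2 effect of conditioned medium in WT (horizontal axis) against that in KO (vertical axis), 1 point per gene for 15197 genes, coloured by the genotype in which the gene was called, with the line of equal effects. The 233 genes called in both genotypes all lie in the quadrants of equal sign, and the 10 called in WT alone all have a KO effect smaller in size than their WT effect. The smaller KO effects follow largely from how these 10 were picked, past the threshold in WT and short of it in KO.

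Both counts depended on single libraries. The KO count became 6485 without conditioned KO library 0, 343 without conditioned KO library 1 and 660 without library 2. It became 403 and 456 without unconditioned KO libraries 1 and 2, and 1603 and 1598 without unconditioned WT libraries 0 and 2. The WT count became 1 and 0 without unconditioned WT libraries 0 and 2, and 15, 68 and 461 without conditioned WT libraries 0, 1 and 2. With the library number as a block the WT count was 135, and 2 with the merged WT library numbered 1 in place of 0. Through the shared spread it also moved to 887 and 81 without conditioned KO libraries 0 and 1, and to 74 and 97 without unconditioned KO libraries 1 and 2. A gene called in one genotype and not in the other is thus not shown to differ between them.

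Lysosomal genes rose in both genotypes. The lysosome breaks down proteins, sugar chains and lipids in an acid space, and its genes are known to be switched on together by the factors TFEB and TFE3, which bind the short E-box sequence CACGTG and are held in check by the Rag GTPases and folliculin on the lysosome's surface. Of 43 lysosomal hydrolases and membrane proteins, 26 rose in KO and 18 in WT, against 8.8% and 1.09% of all genes, and none fell. The median effect was 0.67 in KO and 0.88 in WT. The median interaction was -0.10, against -0.015 over all genes, and 17 of 43 had a positive value. It was -0.05 without conditioned WT library 1 or conditioned KO library 2. Of 25 genes of the Rag and folliculin system, 11 rose in KO and 7 in WT, and their median interaction of -0.05 ran from -0.09 to 0.12 with 1 library left out, positive without unconditioned KO library 0 and conditioned KO libraries 0 and 2.

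Because these genes moved together in both genotypes, their promoters were searched for the E-box CACGTG, which reads the same on both strands, in the 250 bases before each annotated start. The sequences are from RefSeq on GRCm38.p6, which held 9934 of 13241 tested symbols. The E-box was present for 992 of these 9934 genes (9.99%), for 10 of 34 lysosomal genes (29.4%) and for 6 of 24 genes of the Rag and folliculin system (25%). Shares as high stood in lists with at most 1 member that rose in WT, at 8 of 22 glucocorticoid and clock genes (36.4%), 4 of 15 genes of the IGF axis (26.7%), 6 of 24 immediate early genes (25%) and 4 of 16 sterol synthesis genes (25%). A match is a description of the letters and does not show that a factor binds. Stretches of 4 genes that rose in both genotypes are shown 5′ to 3′ on the gene's strand, with the E-boxes in capitals. They are Ctsa, a lysosomal carboxypeptidase (chr2:164833723-164833772, plus strand), Lamtor1, the anchor of the Rag GTPases (chr7:101905749-101905798, plus strand), Gla, the alpha-galactosidase (chrX:134601170-134601219, minus strand), and Lamp1, a main protein of the lysosomal membrane (chr8:13159111-13159160, plus strand). These 4 were chosen after their values were seen.
Ctsa: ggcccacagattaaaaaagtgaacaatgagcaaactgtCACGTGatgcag
Lamtor1: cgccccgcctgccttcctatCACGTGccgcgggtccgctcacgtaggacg
Gla: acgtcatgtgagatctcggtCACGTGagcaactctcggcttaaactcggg
Lamp1: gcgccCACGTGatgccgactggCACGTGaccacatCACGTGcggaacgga

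The levels of Lamp1, whose stretch holds 3 E-boxes, were 933 and 866 CPM in unconditioned WT and 2178, 2129 and 1712 CPM in conditioned WT. In KO they were 939, 704 and 707 CPM in unconditioned medium and 1741, 2024 and 1978 CPM in conditioned medium. The 2 media did not overlap in either genotype, and conditioned libraries of both genotypes covered the same range. Lamp1 rose by 1.16 in WT (SE 0.19; edgeR adjusted p = 0.0249) and by 1.29 in KO (SE 0.17; edgeR adjusted p = 0.00467). Ctsa rose by 1.22 in WT (SE 0.16) and by 1.14 in KO (SE 0.14).

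Of the 8 genes with the firmest calls in both genotypes, Renbp and Gnpda1 act on amino sugars and Atp6ap2 belongs to the proton pump of acid organelles. Renbp was at 14.7 and 12 CPM in unconditioned WT and at 74.6, 71.6 and 56.0 CPM in conditioned WT. The KO libraries were at 13.0, 11.3 and 13.0 CPM and then at 51.9, 61.1 and 56.1 CPM. These values overlapped between genotypes within each medium, and the interaction was -0.16 (SE 0.21). Cpeb1, which binds the tails of messenger RNAs, rose by 2.16 in WT and 1.89 in KO, with an interaction of -0.27 (SE 0.28). No gene was called in opposite directions in the 2 genotypes.

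The genes with the smallest unadjusted interaction p are described next. None of them passed the adjustment over all genes, where each had an adjusted p of 0.822. The groups of conditioned libraries, each taken against the mean of its own unconditioned group, did not overlap between genotypes for 2934 of 15197 genes (19.3%). KO lay above WT for 1468 genes (9.66%) and below WT for 1466 (9.65%), so genes that do not overlap were equally common in both directions. That count became 9303 without conditioned KO library 0 and 4740 without conditioned WT library 1.

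Angptl4, a secreted inhibitor of lipoprotein lipase, fell in both genotypes and fell less in KO. Its levels were 69.6 and 68.3 CPM in unconditioned WT and 9.99, 8.03 and 16.3 CPM in conditioned WT. In KO they were 60.8, 49.0 and 45.7 CPM and then 18.0, 18.1 and 20.1 CPM. All conditioned KO libraries lay above all conditioned WT libraries, while unconditioned KO libraries lay below unconditioned WT. The effect was -2.59 in WT (SE 0.25; edgeR adjusted p = 0.00533) and -1.47 in KO (SE 0.22; edgeR adjusted p = 0.00676), and the interaction was 1.12 (SE 0.33; edgeR unadjusted p = 0.00692). The value was of similar size without conditioned KO library 0, at 1.16 (SE 0.35; edgeR adjusted p = 0.0691). The gene spans chr17:33774900-33781575 in the authors' table (build GRCm38).

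Among the genes with negative interactions, Mrpl2, a protein of the mitochondrial ribosome (chr17:46646248-46650132), was at 26.6 and 24.3 CPM in unconditioned WT and 38.9, 33.3 and 35.0 CPM in conditioned WT. The KO levels were 30.5, 35.7 and 35.8 CPM and then 31.2, 29.7 and 27.8 CPM. WT libraries did not overlap between media, with the conditioned ones higher, whereas KO libraries overlapped. The interaction was -0.69 (SE 0.17; edgeR unadjusted p = 0.00217). Mthfd1l, the mitochondrial enzyme that releases formate for one-carbon metabolism (chr10:3973075-4167081), was at 50.6 and 52.8 CPM and then 34.9, 34.0 and 39.8 CPM in WT. In KO it went from 66.2, 73.8 and 80.0 CPM to 36.4, 26.5 and 28.6 CPM. It fell by 1.27 in KO (SE 0.14; edgeR adjusted p = 0.00407), the WT value was -0.51 (SE 0.15; edgeR adjusted p = 0.125), and the interaction was -0.75 (SE 0.20). For both Mrpl2 and Mthfd1l the genotypes also differed in unconditioned medium, where every KO library was above every WT library.

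The 10 genes called in WT and not in KO included Slc7a11, Dtx4, Tmem256, Klf5 and Hsf2bp. Slc7a11, the cystine importer that feeds glutathione synthesis (chr3:50364936-50443613), was at 14.6 and 17.5 CPM in unconditioned WT and 51.2, 28.5 and 40.3 CPM in conditioned WT. With KO the levels were 22.8, 17.7 and 20.0 CPM and then 20.2, 22.5 and 31.9 CPM. It rose by 1.31 in WT (SE 0.27; edgeR adjusted p = 0.0471), the KO value was 0.30 (SE 0.23), and the interaction was -1.01 (SE 0.35; edgeR unadjusted p = 0.0169). Conditioned KO library 2 lay above the lowest conditioned WT library. Dtx4, a ubiquitin ligase of the Deltex family, rose by 1.1 in WT (SE 0.21) against 0.17 in KO (SE 0.18), with an interaction of -0.93 (SE 0.28). Tmem256 rose by 0.95 in WT (SE 0.19) against 0.12 in KO (SE 0.16), with an interaction of -0.83 (SE 0.24). For Slc7a11, Dtx4 and Tmem256 every unconditioned KO library lay above every unconditioned WT library. Klf5, a zinc finger transcription factor, fell by 1.08 in WT, and its interaction was 0.56 (SE 0.30). Hsf2bp had the smallest unadjusted p of the symbols named here, at 0.000727 (edgeR). Its interaction was 3.0 (SE 0.63), but its highest library was at 2.11 CPM and its conditioned WT libraries at 0.187, 0.198 and 0.448 CPM.

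Some genes with positive interactions rose in KO and were not called in WT. Med12l, a Mediator subunit, was at 5.2 and 5.58 CPM in unconditioned WT and 6.30, 6.58 and 5.25 CPM in conditioned WT. In KO it went from 4.26, 3.56 and 3.80 CPM to 6.82, 8.88 and 8.51 CPM. It rose by 1.06 in KO (SE 0.18; edgeR adjusted p = 0.00826) and its interaction was 0.89 (SE 0.26). Mttp, which loads lipid onto lipoproteins, rose by 0.64 in KO (SE 0.13) against 0.02 in WT (SE 0.14), with an interaction of 0.62 (SE 0.19). For both genes all 3 conditioned KO libraries, library 0 included, lay above the unconditioned KO libraries. The unconditioned KO libraries of both genes lay below the unconditioned WT libraries. Adamts1, a protease that trims matrix proteoglycans, was at 168 CPM in conditioned KO library 0 and at 274 and 281 CPM in libraries 1 and 2, against 143 to 174 CPM in all WT libraries. Its interaction was 0.77 (SE 0.26).

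**Figure D2:**
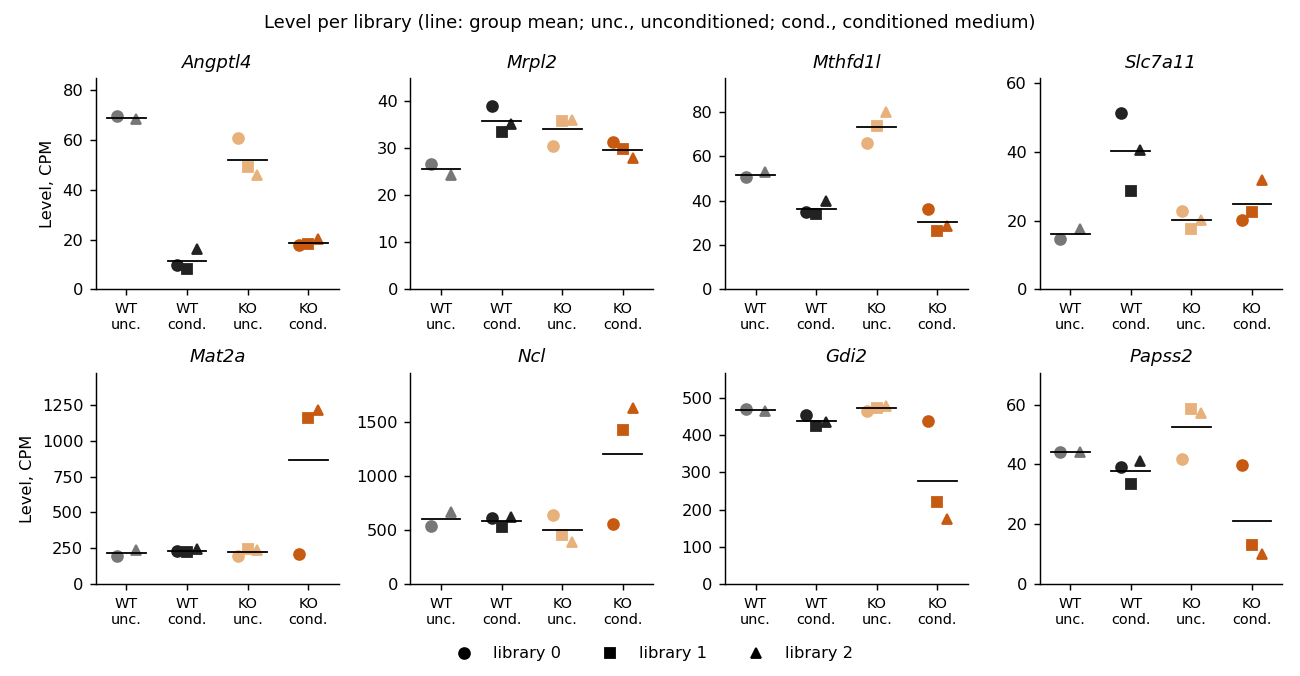
Level in CPM of 8 genes in each of the 11 libraries, with 1 symbol per library number and a line at each group mean (WT and KO, unconditioned and conditioned medium). In the upper row the conditioned KO libraries lie close together for Angptl4 (18.0, 18.1 and 20.1 CPM). Those of Mthfd1l (36.4, 26.5 and 28.6 CPM) and Slc7a11 are more spread. In the lower row conditioned KO library 0 lies with the other groups (Mat2a at 212 CPM against 1159.9 and 1218 CPM).

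The number of interaction calls turned on conditioned KO library 0. Without it, 1429 genes were called (9.43% of 15158 tested), 687 higher in KO (4.53%) and 742 lower (4.9%). Without both KO libraries of number 0 the count was 2705 (17.9%), 1305 higher (8.63%) and 1400 lower (9.26%). The 2 sets shared 1414 genes, 99.0% of the first and 52.3% of the second. Leaving out any of the other 10 libraries gave 0 calls. In the 1429 genes, the change in conditioned KO library 0 beyond the mean WT change had the called direction in 646 and a median size of -0.02, against 0.78 in library 1 and 1.0 in library 2. It lay nearer to the WT mean than those of libraries 1 and 2 in 1410 of the 1429. The genes were called in a fit with libraries 1 and 2 as its only conditioned KO libraries. Large changes in these libraries thus follow from how the genes were picked. The look at library 0 also shares the unconditioned KO mean and the WT libraries with the fit, and these counts describe the libraries and are no test.

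**Figure D3:**
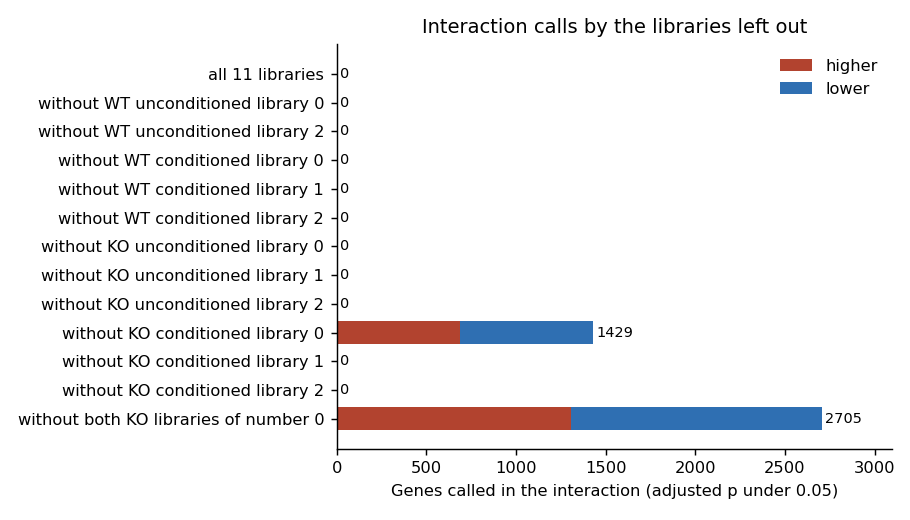
Number of genes called in the interaction (adjusted p under 0.05, edgeR) with all 11 libraries and with libraries left out, split into genes higher and lower in KO. The count is 0 in each fit that keeps conditioned KO library 0, 1429 without it and 2705 without both KO libraries of number 0.

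Taken by number, conditioned minus unconditioned KO library exceeded a 2-fold change in 961 genes for number 0, 3026 for number 1 and 3676 for number 2. The mean effect in WT exceeded that fold in 1097 genes. The WT effect is a mean of 3 conditioned minus a mean of 2 unconditioned libraries. Its count is therefore not on the same scale as those of single KO libraries. Among these, number 0 had the count closest to that of WT. Its change also correlated with the WT effect across genes at r = 0.698, against 0.658 and 0.594 for numbers 1 and 2, and no source used here says that equal numbers share an animal or culture.

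Mat2a, Mtrr and Chka were among the 12 leading genes called higher without that library, and were picked from them after their values were seen. Mat2a, which makes S-adenosylmethionine, the cell's methyl donor (chr6:72414308-72440615), was at 193 and 239.9 CPM in unconditioned WT and at 229, 223 and 244 CPM in conditioned WT. Unconditioned KO libraries were at 198, 243 and 237 CPM and conditioned ones at 212, 1159.9 and 1218 CPM. Conditioned KO libraries 1 and 2 stood far above every other library, and library 0 lay inside the range of the rest. The interaction was 1.83 with all libraries (SE 0.71; edgeR unadjusted p = 0.0277) and 2.30 without conditioned KO library 0 (SE 0.18; edgeR adjusted p = 0.00261). Mtrr, which reactivates methionine synthase, was at 31.1, 79.1 and 99.4 CPM in conditioned KO and at 28.0 to 34.0 CPM in all other libraries, and its interaction was 1.09 with and 1.45 without library 0. Chka, the first enzyme of phosphatidylcholine synthesis, was at 15.8, 67.8 and 86.9 CPM in conditioned KO and at 12.1 to 20.2 CPM elsewhere, and its interaction was 1.66 with and 2.11 without library 0.

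Further genes called in the fit without conditioned KO library 0 showed the same split. Libraries 1 and 2 are the only conditioned KO libraries in that fit. That they lie apart from the other groups is therefore set by the choice of genes and adds no support. Apex1, a DNA repair endonuclease, was at 50.9, 164 and 201 CPM in conditioned KO, with 48.5 to 58.0 CPM in the other 3 groups. Hey1, a repressor downstream of Notch, was at 1.45, 13.4 and 15.9 CPM in conditioned KO, and at 2.17 CPM or less in the other groups. In the other direction, Gdi2, which recycles Rab GTPases, was at 438, 221 and 174 CPM in conditioned KO against 426 to 479.6 CPM elsewhere. Papss2, which makes the sulfate donor used for cartilage proteoglycans, was at 39.9, 13.0 and 9.98 CPM against 33.4 to 58.4 CPM elsewhere. Suclg1, a subunit of the citric acid cycle enzyme succinyl-CoA ligase, was at 70.8, 39.3 and 35.1 CPM against 64.0 to 70.7 CPM elsewhere. Library 0 lay inside the range of the other groups for 4 of these 5 genes and just above it for Suclg1. Their interactions without library 0 were 1.68 for Apex1, 3.38 for Hey1, -1.16 for Gdi2, -1.97 for Papss2 and -0.95 for Suclg1, all called, and with it 1.28, 2.86, -0.68, -1.11 and -0.58, none called.

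Gene lists were then compared by their counts and medians. With all libraries no member of any list was called in the interaction. The median interaction over all genes was -0.015, and 7361 of 15197 were positive. Counts of members that rose or fell stand against 8.8% and 7.94% of all genes in KO, and 1.09% and 0.507% in WT. Without conditioned KO library 0, 4.53% of all genes were called higher in the interaction and 4.9% lower.

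**Figure D4:**
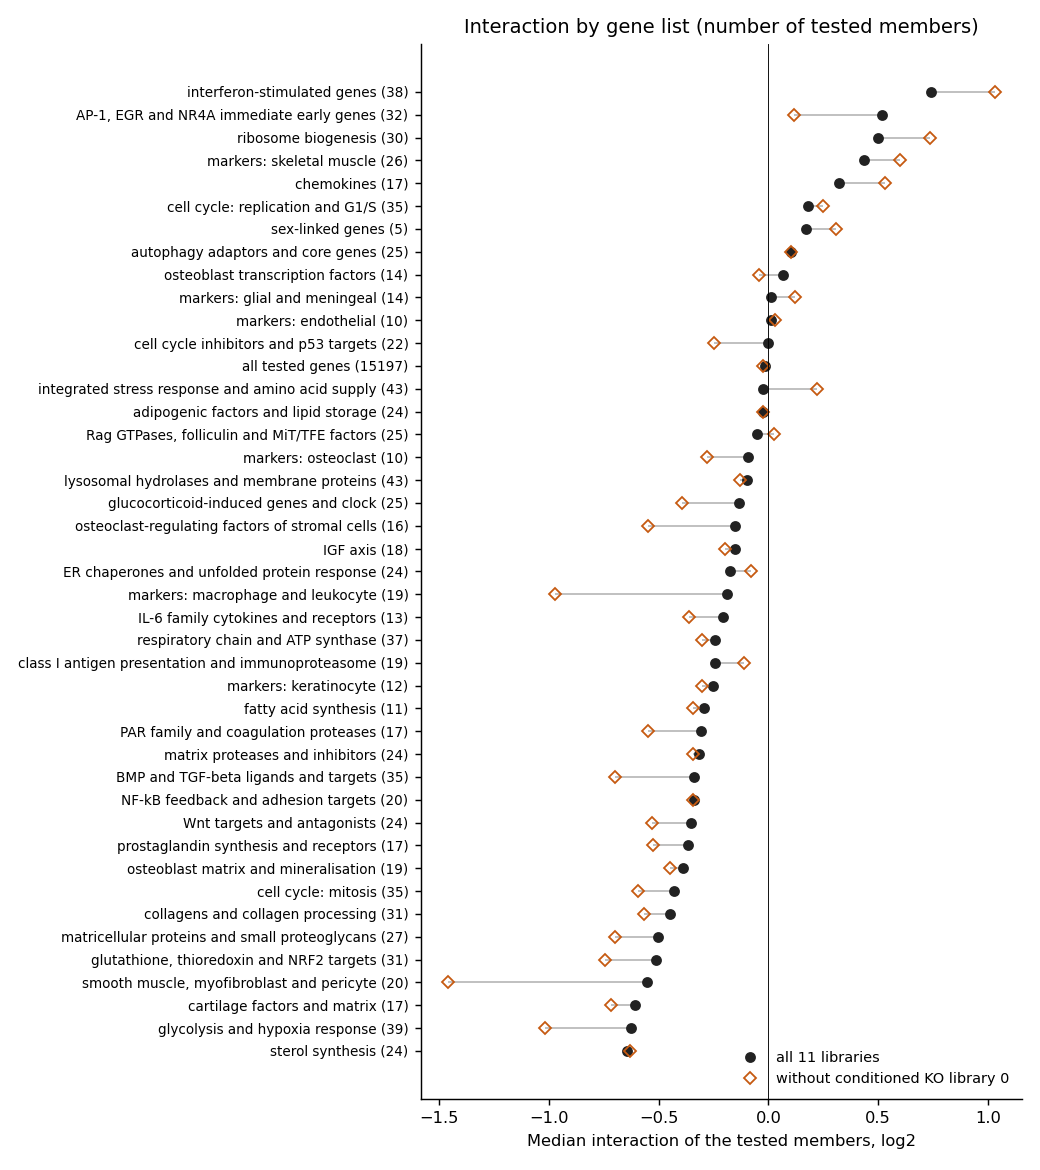
Median interaction (log2) of the tested members of each gene list, with their number in brackets, for all 11 libraries (filled circles) and without conditioned KO library 0 (open diamonds). Interferon-stimulated genes lie highest, at 0.74 and 1.03, and sterol synthesis lies lowest with all libraries at -0.64.

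Ribosome biogenesis genes, which make and assemble ribosomal RNA in the nucleolus, had positive interactions in 28 of 30 members, with a median of 0.50. In KO 5 of 30 rose (8.8% of all genes) and in WT none did (1.09%). Without conditioned KO library 0 the median was 0.74 and 17 of 30 were called higher (4.53% of all genes), none lower. Nucleolin, encoded by Ncl, was at 539 and 667 CPM in unconditioned WT and 608, 527 and 625 CPM in conditioned WT. Its KO levels were 644, 457 and 392 CPM and then 555, 1432 and 1632 CPM. Libraries 1 and 2 of conditioned KO stood above all others, and library 0 did not. The interaction of Ncl was 1.32 (SE 0.51; edgeR unadjusted p = 0.0277), that of the helicase Ddx21 was 0.83 (SE 0.36) and that of the pseudouridine synthase Dkc1 was 1.02 (SE 0.49). Myc, a known driver of these genes, was at 87.6 and 113 CPM in unconditioned WT and at 37.9, 50.5 and 69.9 CPM in conditioned WT. Its KO levels were 129, 108 and 92.7 CPM and then 72.5, 150.5 and 229 CPM. The effect on Myc was -0.92 in WT (SE 0.40) and 0.45 in KO (SE 0.36), neither of them called. The interaction of Myc was 1.38 (SE 0.54), and whether Myc acts on the list here was not tested. The median of the list ranged from 0.28 without conditioned KO library 2 to 0.74 when each library was left out in turn.

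Interferon-stimulated genes, which cells make in answer to type I and II interferons, had positive interactions in 36 of 38 members, with a median of 0.74. In KO 33 of 38 rose, against 8.8% of all genes. In WT none was called, although 37 of 38 had positive values, with a median effect of 1.13 against 2.11 in KO. Without conditioned KO library 0 the median interaction was 1.03 and 4 of 38 were called higher, against 4.53% of all genes. The median was 0.49 without conditioned KO library 2. All conditioned KO changes lay above all WT changes in 3 of 38 members and below them in 1, against 9.66% and 9.65% of all genes. Ifit1, which blocks translation of foreign RNA, was at 13.0 and 7.14 CPM in unconditioned WT and 64.6, 71.5 and 16 CPM in conditioned WT. Unconditioned KO libraries had 8.06, 7.46 and 7.53 CPM and conditioned KO libraries 44.9, 351 and 420.2 CPM. Library 0 of conditioned KO lay inside the range of conditioned WT, and libraries 1 and 2 lay above it. Ifit1 rose by 5.14 in KO (SE 0.84; edgeR adjusted p = 0.0081), and its interaction was 2.82 (SE 1.1; edgeR unadjusted p = 0.0281). Isg15, a ubiquitin-like modifier, followed the same order, with 30.8, 229 and 308 CPM in conditioned KO and 35.8, 49.6 and 12.7 CPM in conditioned WT.

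The promoters of these genes were searched for 2 copies of GAAA with any 2 bases between them, on either strand, the core of the element that interferon regulatory factors and the complex ISGF3 bind. It was present in the 250 bases before the start for 295 of 9934 genes (2.97%) and for 11 of 27 interferon-stimulated genes (40.7%). Among genes called higher in the fit without conditioned KO library 0 it was present in 15 of 506 (2.96%). Stretches of Ifit1 (chr19:34640774-34640843, plus strand) and Isg15 (chr4:156200845-156200914, minus strand) are shown on the gene's strand with the matches in capitals, since these 2 genes had large interactions. Each holds 2 matches. Rsad2 and Oasl1 were looked at in the same way. The stretch of Rsad2 holds 1 match, and no stretch with a match was obtained for Oasl1.
Ifit1: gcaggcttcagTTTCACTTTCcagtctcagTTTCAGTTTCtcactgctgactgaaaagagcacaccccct
Isg15: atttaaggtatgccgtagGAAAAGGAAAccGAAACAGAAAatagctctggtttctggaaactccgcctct

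Immediate early genes, which respond within minutes to growth factors and stress, had a median interaction of 0.52, with 26 of 32 positive. Their median dropped to 0.12 without conditioned KO library 0, to 0.24 without unconditioned KO library 2 and to 0.04 without unconditioned WT library 2. It was 0.83 without unconditioned WT library 0 or unconditioned KO library 0, and 0.85 without conditioned WT library 2. In KO 3 of 32 rose (8.8% of all genes), and 3 were called higher without conditioned KO library 0 (4.53%). Atf3, a stress-induced repressor, was at 2.77, 78.8 and 178 CPM in conditioned KO and at 1.40 to 7.90 CPM in the other groups. Its interaction was 3.66 (SE 1.69; edgeR unadjusted p = 0.0552). Chemokines had a median of 0.32, with 13 of 17 positive, and it was 0.64 and 0.51 without unconditioned KO libraries 0 and 1 and 0.53 without conditioned KO library 0. Among them Cxcl3, which attracts neutrophils, went from 14.8 and 13.9 CPM to 0.687, 1.12 and 4.74 CPM in WT. In KO it went from 13.2, 7.53 and 7.27 CPM to 2.59, 8.71 and 14.7 CPM, and the interaction was 2.61 (SE 1.02). Cxcl5 fell in both genotypes, by 1.48 in WT and 0.93 in KO, with an interaction of 0.55 (SE 0.27).

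**Figure D5:**
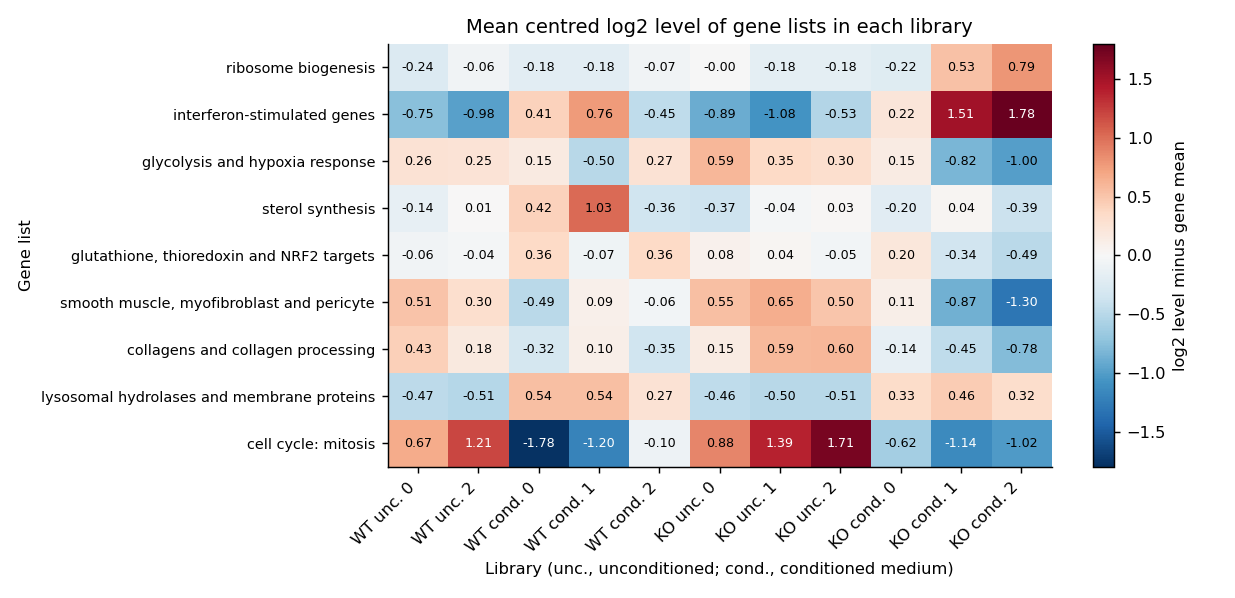
Mean log2 level of 9 gene lists in each of the 11 libraries, centred on each gene's mean over all libraries (colour scale and printed values, log2). Conditioned KO libraries 1 and 2 are highest for interferon-stimulated genes (1.51 and 1.78) and lowest for the glycolysis and hypoxia list (-0.82 and -1.0), while conditioned KO library 0 is at 0.22 and 0.15.

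Glycolysis and hypoxia genes, which burn glucose without oxygen and are switched on by HIF-1, lay on the negative side in 36 of 39 members. Their median interaction was -0.62 with all libraries and -1.02 without conditioned KO library 0, where 13 of 39 were called lower, against 4.9% of all genes. The median was -0.40 without conditioned KO library 2. In KO 9 of 39 fell and 1 rose, and in WT 1 rose. The list's mean level was -0.82 and -1.0 in conditioned KO libraries 1 and 2, -0.50 in conditioned WT library 1, and 0.15 or higher in the other 8 libraries. Low values were thus shared by 3 conditioned libraries, 1 of them WT. Ldha, which makes lactate, was chosen after its values were seen and had 1219, 306 and 209 CPM in conditioned KO and 1195, 544 and 1477 CPM in conditioned WT. P4ha2, a collagen prolyl hydroxylase, fell by 1.41 in KO (SE 0.23; edgeR adjusted p = 0.0081), with an interaction of -0.62 (SE 0.34). Ak4, a mitochondrial adenylate kinase, fell by 1.47 in KO (SE 0.36), with an interaction of -1.01 (SE 0.53).

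Glutathione, thioredoxin and NRF2 target genes, which guard against oxidants, were negative in 26 of 31 members, with a median of -0.51. Of these, 6 had an unadjusted p under 0.05, and without conditioned KO library 0 there were 9 called lower and 1 higher, against 4.9% and 4.53% of all genes. Sod1, the cytosolic superoxide dismutase, was at 32.8 and 29.8 CPM and then at 37.5, 34.0 and 38.0 CPM in WT. KO levels went from 38.7, 39.6 and 44.4 CPM to 37.2, 29.0 and 27.8 CPM. Every conditioned value lay above the unconditioned ones in WT and below them in KO. The unconditioned values themselves were all higher in KO than in WT. The interaction was -0.61 (SE 0.20; edgeR unadjusted p = 0.0107), and neither medium effect was called. Srxn1, which repairs peroxiredoxins, had an interaction of -1.24 (SE 0.45). Nqo1, a quinone reductase chosen after its values were seen, was at 75.5, 13.3 and 7.56 CPM in conditioned KO and at 108, 28.2 and 112 CPM in conditioned WT, where library 1 was the low one.

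Respiratory chain and ATP synthase genes were negative in 30 of 37 members. The median was small, at -0.24, but 12 of 37 had all conditioned KO changes below all WT changes, against 9.65% of all genes. Ndufb9, a subunit of complex I, was at 56.0 and 54.7 CPM and then 78.3, 68.5 and 66.2 CPM in WT. Among KO libraries it went from 60.7, 64.8 and 66.8 CPM to 67.4, 52.0 and 52.5 CPM, with all unconditioned KO values above the unconditioned WT ones. Its interaction was -0.52 (SE 0.18; edgeR unadjusted p = 0.0174), and 9 of 37 members were called lower without conditioned KO library 0, against 4.9% of all genes. Sterol synthesis genes were negative in 23 of 24 members, with a median of -0.64, and none was called in either genotype. Their median effect was 0.56 in WT and -0.08 in KO. Cyp51, which takes a methyl group off lanosterol, was at 108 and 123 CPM in unconditioned WT, at 204, 289 and 91.3 CPM in conditioned WT and at 81.0 to 131 CPM in all KO libraries. The spread lay within WT, where library 1 was high, and the median moved to -0.24 without that library.

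Matrix and contractile genes lay on the negative side too. Of 31 collagens and collagen-processing genes 29 were negative, with a median of -0.45, which was -0.27 without conditioned WT library 1. In KO 17 of 31 fell (7.94% of all genes) and in WT 1 did (0.507%). The fit without conditioned KO library 0 called 9 of 31 lower and 1 higher. Plod1, a collagen lysyl hydroxylase, was at 263 and 211 CPM and then at 162, 169.7 and 188 CPM in WT. In KO it was at 247, 339 and 345 CPM and then at 193, 129.5 and 108 CPM, and its interaction was -0.66 (SE 0.32). Of 27 matricellular proteins and small proteoglycans 25 were negative, with a median of -0.50, which was -0.20 without conditioned WT library 1. Prelp, a small proteoglycan that anchors matrix, was at 101 to 126 CPM in all WT libraries. Among KO libraries Prelp was at 117, 394 and 398 CPM in unconditioned medium and at 128, 82.4 and 40.7 CPM in conditioned medium. Both KO libraries of number 0 lay near WT, and the interaction was -1.81 (SE 0.70; edgeR unadjusted p = 0.0277).

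Smooth muscle, myofibroblast and pericyte genes were negative in 19 of 20 members. Their median of -0.56 became -1.46 without conditioned KO library 0, where 7 of 20 were called lower (4.9% of all genes), and -0.36 and -0.23 without conditioned KO libraries 1 and 2. Cnn2, an actin-binding calponin, was at 345 and 375 CPM and then at 248, 351 and 339 CPM in WT. In KO it was at 405, 440.1 and 439 CPM and then at 353, 149.5 and 110.1 CPM. Acta2, smooth muscle actin, chosen after its values were seen, was at 923, 211 and 146 CPM in conditioned KO and at 448, 979 and 805 CPM in conditioned WT. In bulk RNA, fewer cells of a type and less RNA per cell cannot be told apart.

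Genes of mitosis fell in KO in 35 of 35 members (7.94% of all genes) and in WT in 2 of 35 (0.507%), but their median effects were -2.29 and -1.87, and no member was called in the interaction. The median interaction of -0.43 became 0.17 without conditioned WT library 2, and -0.72 without conditioned WT library 0. It was -0.17 and -0.71 without unconditioned WT libraries 0 and 2, and -0.24 without unconditioned KO library 2. Conditioned WT library 2 had the highest level of the list among conditioned libraries, at -0.10, against -1.78 and -1.20 in the other conditioned WT libraries and -1.14 to -0.62 in KO. Ccna2, cyclin A2, fell by 2.84 in KO (SE 0.44), with a WT value of -1.73 (SE 0.46) and an interaction of -1.12 (SE 0.63). Genes of replication and the G1/S step had a median interaction of 0.18, which was -0.20 without unconditioned WT library 2 and -0.006 without conditioned WT library 0. With 1 library left out its highest value was 0.53, without unconditioned WT library 0.

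Osteoblast genes showed no call in the interaction with all libraries. Of 19 matrix and mineralisation genes 5 were positive, with a median of -0.39, and of 14 osteoblast transcription factors 8 were, with a median of 0.07. The matrix median was -0.21 without conditioned WT library 2 and -0.24 without conditioned KO library 2, and that of the transcription factors ran from -0.04 without conditioned KO library 0 to 0.20 without conditioned WT library 1. In the fit without conditioned KO library 0, Enpp1, which makes the mineralisation inhibitor pyrophosphate, was called lower at -1.26 (edgeR adjusted p = 0.0204), and so was Pth1r, the parathyroid hormone receptor, at -0.92. Of the transcription factors, Msx1 at -1.27 and Twist1 at -0.61 were called lower and Hey1 higher in that fit. Runx2 had an interaction of -0.05 (SE 0.17; edgeR unadjusted p = 0.765), and its libraries overlapped between all 4 groups. Alpl, the alkaline phosphatase of mineralising cells, was at 32.8 and 46.7 CPM and then at 15.6, 11.7 and 25.4 CPM in WT. In KO it was at 32.9, 80.3 and 103 CPM and then at 35.1, 18.2 and 14.2 CPM. It fell by 1.68 in KO (SE 0.47; edgeR adjusted p = 0.0376), and its interaction was -0.50 (SE 0.69). Tnfsf11, the osteoclast-inducing ligand RANKL, was at 251 and 250.2 CPM and then at 52.7, 46.4 and 119 CPM in WT, and at 258, 331 and 341 CPM and then at 138, 51.3 and 46.4 CPM in KO. Media did not overlap in either genotype, and the interaction was -0.20 (SE 0.67; edgeR unadjusted p = 0.771). Col1a1 had an interaction of -0.45 (SE 0.55).

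Of 17 tested genes of the PAR family and of coagulation, 14 were negative, with a median of -0.31. It was -0.55, -0.19 and -0.12 without conditioned KO libraries 0, 1 and 2, -0.20 without unconditioned KO library 0 and -0.18 without conditioned WT library 2. F2rl2 and F2rl3 had at most 5 fragments in any library and were not tested. F3, tissue factor, which starts the cascade that makes thrombin, was at 141 and 183 CPM and then at 117, 141 and 142 CPM in WT. In KO it was at 172, 298 and 302 CPM and then at 158, 87.1 and 85.9 CPM. Libraries of number 0 lay within or near the WT range in both media, and libraries 1 and 2 lay outside it on both sides. F3 fell by 1.22 in KO (SE 0.28; edgeR adjusted p = 0.0205), and the interaction was -0.95 (SE 0.42; edgeR unadjusted p = 0.0458). Without conditioned KO library 0 it was -1.29 (edgeR adjusted p = 0.0439).

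Markers of other cells moved with these groups to differing degrees. The 26 skeletal muscle genes had a median interaction of 0.43, which ran from -1.37 without unconditioned WT library 0 to 2.55 without conditioned WT library 1, the libraries where the list's mean level was highest, at 1.97 and 1.67. The median of the 19 macrophage and leukocyte genes was -0.19, and -0.97 over 18 tested without conditioned KO library 0. Their summed level was 20.96 CPM in conditioned KO library 2 and 60.7 CPM in conditioned KO library 0. Of 14 osteoclast markers 10 were tested, 3 of which stand in other lists too, and their summed level was 272 to 308 CPM in unconditioned and 469 to 726 CPM in conditioned libraries. Of these, Atp6v0d2, Clcn7, Ctsk and Tcirg1 rose in KO and the first 3 also in WT. Ctsk, the collagen-degrading cathepsin K, was at 108 and 93.8 CPM and then 359, 255 and 219.9 CPM in WT, and went from 105, 153 and 144 CPM to 238, 395 and 378 CPM in KO. The 10 endothelial genes tested together reached 248 to 357 CPM, with Kdr, Tek and Vwf higher and Aqp1 lower in KO and none called in WT. The 14 glial and meningeal genes tested reached 276 to 480 CPM, and Ptgds alone was called, higher in KO. Median interactions were -0.09, 0.013 and 0.013 for these 3 lists, and without conditioned KO library 0 the endothelial Flt1 was called lower. Of the defining markers of other cells, Calcr, Dcstamp and Oscar (osteoclasts), Pecam1 (endothelium) and Gfap (glia) did not pass the filter on low counts. Tyrobp, an adaptor of myeloid cells, was at 0.393 to 3.01 CPM in all libraries. Whether these cells took part in the differences of the other lists was not tested.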

How the data were processed

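RNA-seq of 12 samples was used as deposited. TopHat2 2.0.9, Cufflinks 2.1.1, Cuffdiff 2.1.1, CASAVA 1.8.2 and the build GRCm38 (mm10) are named, per the submitters' processing notes. The authors' table holds, per the file headers, raw fragments per gene and library, which are estimated counts (94.3% exactly whole as written), and FPKM values, which the authors divided by gene length and depth. The p-value columns deposited by the authors were not used. Of 25511 genes, 1714 have no symbol and took 2.69% to 3.10% of a library's fragments.

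Unconditioned WT libraries 0 and 1 had equal totals of 16309121 fragments and differed by less than sampling noise (chi-square of 760.532 with 15476 degrees of freedom; the second-closest pair of any group gave 94774.5 with 15127), and their mean served as 1 sample. Rounded fragments were fitted in R 4.3.3 by edgeR 4.0.16 (filterByExpr by group, TMM scaling, robust quasi-likelihood, 4 groups, 11 libraries, 7 residual degrees of freedom, biological coefficient of variation 0.237). Adjusted p-values (Benjamini-Hochberg over all tested genes) under 0.05 count as called, and each SE was obtained from a log2 change and the square root of its F statistic, as their quotient. The code was tested on simulated data.

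Genes named were those with the smallest interaction p (12 a direction, mean of at least 5 CPM), at most 3 per list, the 8 firmest calls shared by both genotypes, the leading genes without conditioned KO library 0, and PAR genes. Members and lists were chosen with earlier results of these data known. Alternatives were DESeq2 1.42.0, RLE scaling, no filter, limma 3.58.1 on log2(FPKM + 1) or log2(FPKM + 0.1), each library left out, 12 libraries, and library number as a block. No label ties the table's library numbers to sample titles or gives a batch.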

Additional observations from a re-analysis of the deposited data

How the results depend on the processing

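The interaction count was 0 under RLE scaling, without a filter, with DESeq2, with limma on log2(FPKM + 0.1) or without its filter, with 12 libraries, and with a filter that ignores groups, which was chosen after seeing the data. It was 1 with limma on log2(FPKM + 1) and 2705 without both KO libraries of number 0. Leaving out 1 library at a time gave 0 to 1429. The KO count was 1636 with limma without a filter and 7261 without both KO libraries of number 0, and 343 to 6485 with 1 library left out. The WT count was 881 with DESeq2, 129 with limma without a filter, 1616 without both KO libraries of number 0 and 942 with the identical libraries kept as 2, and 0 to 887 with 1 library left out. Genes whose groups did not overlap numbered 9473 without both KO libraries of number 0, and 2368 to 9303 with 1 library left out.

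With the library number as a replicate block, the interaction count was 0, the KO count 2235 and the WT count 135. With the merged WT library numbered 1 in place of 0, a pairing chosen after seeing the data, they were 0, 1859 and 2. Same-numbered KO libraries deviated together (r = 0.349, 0.219 and 0.309), as did WT libraries of number 2 (0.402). The merged WT library stands for numbers 0 and 1, and its r was -0.127 with conditioned WT library 0 and 0.437 with library 1. With that library numbered 1, all same-numbered pairs were positive, and with it numbered 0 they were not. The 2 unconditioned WT libraries deviate as mirror images, since their mean is the group mean. Conditioned KO library 1 correlated better with unconditioned KO library 2 (0.272) than with its own number. Both KO libraries of number 2 had a high level of the Y chromosome gene Ddx3y, at 90.4 and 76.2 CPM. The other KO libraries had 33.2 to 38.3 CPM. No label says what the numbers share, and whether they pair the libraries was not tested.

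Of 1854 values of 85 genes under the alternatives, 1738 kept direction and side of the threshold, 108 passed it, and 8 changed sign. With 1 library left out, Runx2 ran from -0.18 without unconditioned WT library 2 to 0.070 without unconditioned WT library 0, and was 0.01 without unconditioned KO library 0 and 0.02 without conditioned KO library 2. Col1a1 ran from -0.68 without conditioned WT library 2 to 0.076 without conditioned WT library 1, and was 0.10 with the block. Tnfsf11 ran from -0.87 without conditioned KO library 0 to 0.36 without conditioned WT library 2, and was 0.03 and 0.08 without conditioned KO libraries 1 and 2. The cause was not tested in any of these. Genes under about 1 CPM rest on few fragments, and their log2 values are imprecise.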

Other observations

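Igfbp5, which binds insulin-like growth factors in bone, was at 509 and 533 CPM in unconditioned WT and at 1087, 1534 and 731 CPM in conditioned WT. In KO it was at 414, 566 and 796 CPM and then at 1121, 4492 and 3654 CPM, so that conditioned KO library 0 lay inside the range of conditioned WT. Its interaction was 1.28 (SE 0.68; edgeR unadjusted p = 0.0906). Fabp4, a fatty acid carrier of fat cells and macrophages, was at 8.45 CPM in unconditioned KO library 0 and at 30.4 and 37.7 CPM in unconditioned KO libraries 1 and 2, against 10.2 and 11.9 CPM in unconditioned WT. It fell by 2.88 in KO (SE 0.52; edgeR adjusted p = 0.0102), and its interaction was -2.08 (SE 0.75). Atp6v0d2, a proton pump subunit, rose in both genotypes, from 0.698 and 0.748 CPM to 5.68, 4.54 and 4.16 CPM in WT and from 1.11, 1.57 and 1.31 CPM to 3.56, 5.15 and 4.36 CPM in KO, with an interaction of -1.01 (SE 0.38).

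Some genes separated the libraries by label or by number. Pisd-ps3 was at 53.8 to 75.3 CPM in every WT library and at 23.8 to 43.1 CPM in every KO library, and conditioned KO library 0, at 37.4 CPM, lay with KO. Ddx3y, on the Y chromosome, was at 90.4 and 76.2 CPM in the KO libraries of number 2, at 33.2 to 38.3 CPM in the other KO libraries and at 62.3 to 81.8 CPM in WT. Xist, made from the inactive X, was at 299 and 396 CPM in the KO libraries of number 2 and at 529.9 to 882 CPM in the other KO libraries. The 5 sex-linked genes tested summed to 448 to 588 CPM in WT and to 479 and 575 CPM in the KO libraries of number 2. In the other KO libraries they summed to 600 to 955 CPM. The part of these differences in the interaction was not tested.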
